A study of Bos taurus with 48 samples.

Results

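The vascular lining of the bovine liver was followed through 10 genes of endothelial cells and of angiogenesis, the growth of new vessels. They were *ANGPT1*, *TEK*, *KDR*, *FLT1*, *ENG*, *VASH1*, *ERG*, *CDH5*, *PECAM1* and *VWF*, taken by gene name from the array annotation, and they were 10 of 16313 gene names and 29 of 43803 spots. Liver biopsies came from 32 grazing dairy cows in 4 treatments of 8 cows, each with biopsies 7 d before and 7 and 28 d after calving (−7, 7 and 28 d). B5F125 and B5F75 cows had a body condition score (BCS) of 5 on a 10-point scale before calving and were offered 125 or 75 % of their estimated energy requirements in the last weeks of gestation. B4F125 and B4F75 cows were thin, with a BCS of 4, and were offered 125 or 75 % of requirements. All cows grazed pasture and were managed to their BCS from late lactation on; the sample description calls them American Holstein, whereas the methods give cows of mixed age and breed whose ages and shares of Jersey blood were not the same in every group. An intermediate intake level of the same trial is not analysed here.

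Endothelial cells line every vessel, and in the liver most of them are the fenestrated cells of the sinusoids. Vascular endothelial growth factor made by hepatocytes acts on them through KDR and FLT1, and angiopoietin 1 acts through the receptor TEK to keep vessels quiescent. ERG is a transcription factor that holds endothelial cells in their identity, while CDH5 and PECAM1 join neighbouring cells and VWF carries platelet adhesion.

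Each of 48 two-colour arrays gave, for every spot, the log2 ratio of the liver RNA of 2 cows, so the values are differences between 2 samples and not levels. Of the 16 cow pairs, each hybridised 3 times, 12 were compared within a day and 4, 1 per treatment, between days. On each day the 6 pairings of treatments had 2 arrays each, with opposite dyes, and each treatment lay on 6 of the 12 arrays. In whole liver, fewer cells of a type and less RNA per cell cannot be told apart.

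The 10 genes differed widely in how well they were measured. The deposited log2 ratios are nearly all ratios of whole numbers, and the smaller number of a ratio serves here as a lower bound of brightness. *ENG* had the brightest probe, with a median smaller number of 793.5 over the arrays, followed by *KDR* at 284.5, *TEK* at 250.0, *PECAM1* at 189.5 and *ERG* at 83.0. The brightest probes of *CDH5*, *VWF* and *ANGPT1* lay at 30.5, 27.0 and 21.0, near the median of 22 over all named spots. The only probe of *VASH1* had 6.5, and the 2 probes of *FLT1* had 2.0 and 1.0, with a value on 35 of 48 arrays for the gene. Of the 29 probes, 15 were dim, with a median smaller number under 10, and their log2 ratios had SDs of 0.66 to 1.54 over arrays, against 0.44 to 0.92 for the 14 others. Where the smaller number is close to the signal itself, a single unit more or less would move the ratio of *VASH1* or *FLT1* strongly. It would move that of *ENG* hardly at all.

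**Figure D1:**
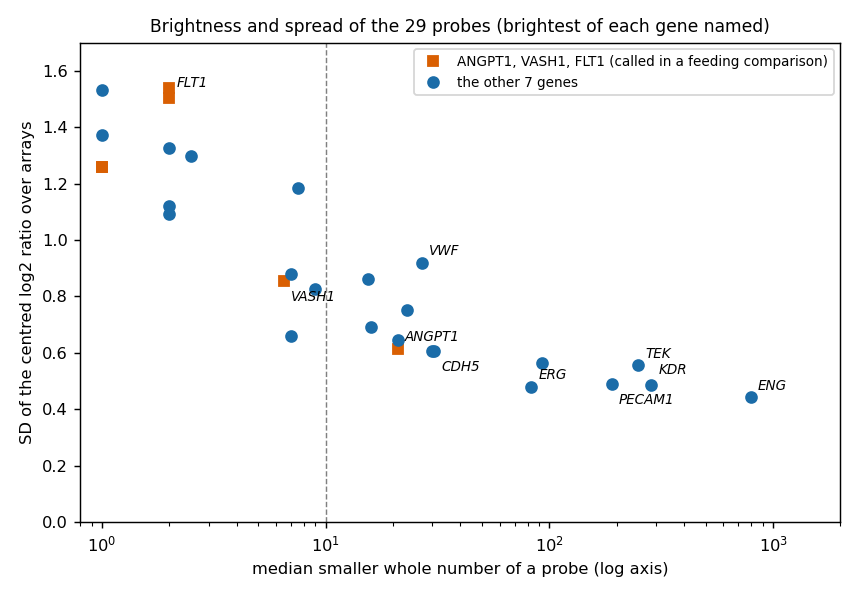
Each point is 1 of the 29 probes, with the median smaller whole number of its ratio on the x axis (log scale) and the SD of its centred log2 ratio over arrays on the y axis; the dashed line marks 10. The probes of *FLT1* and *VASH1* lie left of the line, and the brightest probes of *ENG*, *KDR*, *TEK* and *PECAM1* lie farthest right with low SDs.

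The dyes were taken from the sample titles and each ratio was read as Cy5 over Cy3. In the 12 arrays between days this reading gave haptoglobin, *HP*, at −3.58 ± 0.87 (log2, SE) at 7 against −7 d, below 0 in 4 of 4 pairs. *IGF1* lay at 0.91 ± 0.26, above 0 in 4 of 4 pairs. Each is the opposite of its textbook course around calving. Of the other genes checked, *PDK4* at 0.365 ± 0.26 and *FASN* at −0.35 ± 0.29 ran in the textbook direction, neither called. *CPT1A* lay at 0.01, and the rest ran against their textbook course. The direction of the day comparisons is therefore not settled, and they are given signed as labelled. Within days, F125 over F75 at −7 d gave *ELOVL6*, an enzyme of fatty acid synthesis, at 0.54 ± 0.23 and *FGF21*, a hormone of energy deficit, at −1.46 ± 0.69, both in the textbook direction of more feed, and *PNPLA3*, a gene of lipid metabolism, at −0.11 ± 0.28. None of the 3 was called and all were picked with values in view, so they settle no direction. The treatment comparisons are likewise signed as labelled, and if the arrays held Cy3 over Cy5 every sign below would turn. The RNA integrity numbers in the labels averaged 8.18 ± 0.39 (SD) at −7 d, 7.77 ± 0.43 at 7 d and 8.17 ± 0.45 at 28 d, and their part in any day difference was not tested.

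Feeding at 125 rather than 75 % of requirements went with lower values of 3 of the 10 genes, *VASH1*, *ANGPT1* and *FLT1*, in BCS4 cows. No member was called in BCS5 cows, where the difference from BCS4 cows was itself called for *VASH1* alone. In the fit *FLT1* was below 0 in BCS5 cows too at 7 and 28 d, with wide SEs, but this came through the other treatments. The B5F125 over B5F75 arrays were blank for *FLT1* at 7 d. They gave 0.61 and 1.26 at −7 d, and the 1 measured at 28 d gave 0.21. The bright genes *ENG*, *KDR*, *TEK* and *PECAM1*, and *VWF*, were called in none of the feeding or BCS comparisons. Calls needed an unadjusted p no higher than 0.01 and a fold change of at least 1.5, the thresholds of the study, in a limma fit over 15011 genes. Of 80 tests (10 genes in 8 comparisons, F125 vs F75 in each BCS on each day and over the days), 5 were called, all lower in F125, and 7 had a p of at most 0.05, as had 3.94 % of all gene tests. After Benjamini-Hochberg adjustment over all genes none passed 0.05, and the lowest adjusted p was 0.664. Over all genes the share called in BCS5 cows was 0.673 % at −7 d, 1.07 % at 7 d, 0.386 % at 28 d and 0.460 % over the days, and the shares in BCS4 cows stand beside the genes.

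**Figure D2:**
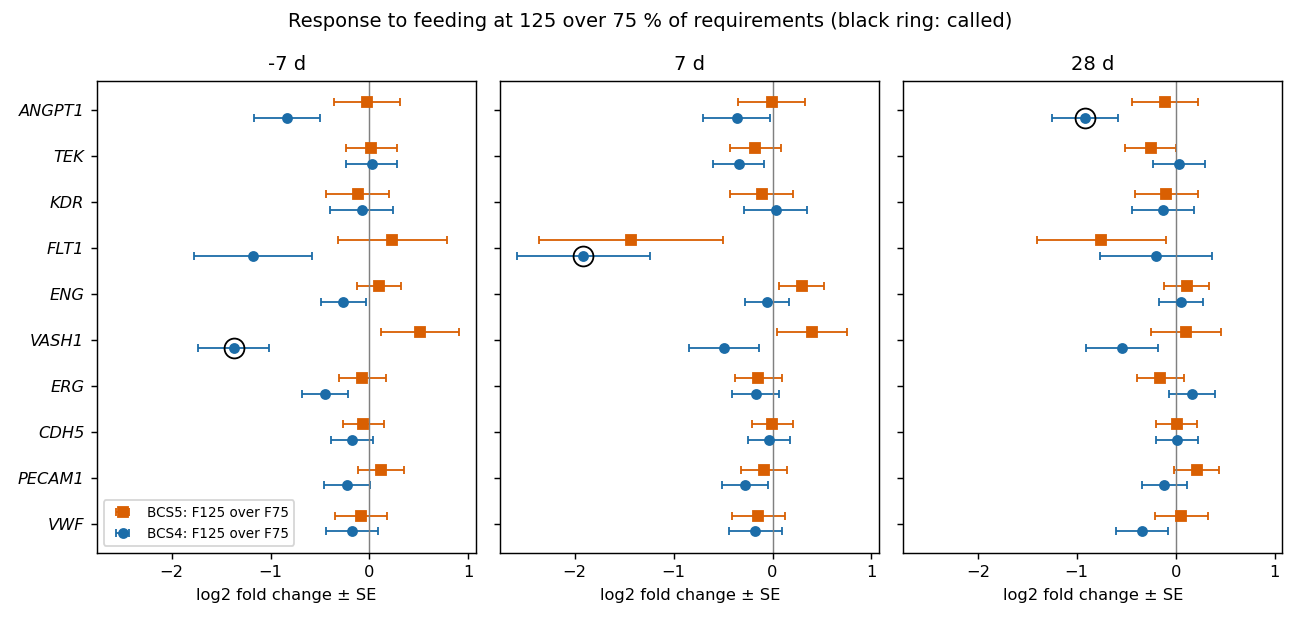
Log2 fold change ± SE of F125 over F75 for each of the 10 genes on each day (panels), in BCS5 cows (squares) and BCS4 cows (circles), from the fit over all arrays. Black rings mark the called values, which are *VASH1* at −7 d, *FLT1* at 7 d and *ANGPT1* at 28 d, all below 0 in BCS4 cows.

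*ANGPT1* encodes angiopoietin 1, the ligand that activates TEK. The 2 arrays that held B4F125 against B4F75 cows gave −0.52 and −0.54 at −7 d, −0.77 and −1.39 at 7 d, and −0.29 and 0.19 at 28 d. B4F125 was thus lower on 5 of these 6 arrays, and over all pairings it was the lower treatment on 15 of 18 arrays within a day. With the days averaged the fitted difference was −0.70 ± 0.24 (SE, limma, adjusted p = 1), where 0.300 % of all genes were called lower and 0.473 % either way. With each of the 16 cow pairs left out in turn it lay between −0.78 and −0.61 and was called in 13 of the 16 fits. It was not called with the brightest of the 3 probes alone (−0.45), which is also the only one that is not dim, nor with the second (−0.62), and the dimmest gave −1.70. At 28 d it was −0.92 ± 0.34 (adjusted p = 0.932), against 0.566 % of all genes called lower and 0.866 % either way. This value at 28 d came mainly through the other treatments: the mean of both direct arrays was −0.05, while B5F125 exceeded B4F125 by 1.98 and 1.5 on the arrays that compared them. It was also not called with the brightest probe alone (−0.62) or in the 12 arrays of that day (−0.93). With cow pairs left out in turn it was called in 3 of 16 fits, between −1.26 and −0.80. At −7 d the difference was −0.83 ± 0.34 (adjusted p = 0.999) and at 7 d −0.36 ± 0.34. In BCS5 cows *ANGPT1* differed by −0.03 at −7 d, −0.01 at 7 d and −0.11 at 28 d, each with an SE of 0.34.

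*TEK*, the receptor of ANGPT1 on endothelial cells, was called in no feeding comparison. Its B4F125 over B4F75 arrays gave −0.02 and 0.62 at −7 d, 0.58 and −0.42 at 7 d, and 0.82 and −0.17 at 28 d, with both signs on every day. On the 3 days the fitted differences were 0.02, −0.17 and −0.25 in BCS5 cows, and 0.02, −0.34 and 0.03 in the thin cows. Over all pairings B4F125 was the lower treatment on 12 of 18 arrays, and the difference from *ANGPT1* was not tested.

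Among the receptors of vascular endothelial growth factor, *KDR*, which carries most of the signal in endothelial cells, and *FLT1*, which binds the factor tightly and limits its supply to KDR, were measured with very different precision. In BCS5 cows *KDR* differed between F125 and F75 by −0.12, −0.11 and −0.09 on the 3 days, and in the thin cows by −0.08, 0.03 and −0.13, each smaller than its SE of 0.32. *FLT1* had a value on 7 of the 12 arrays at 7 d. Both arrays of B4F125 over B5F75 gave −2.69 and −0.81, the 1 measured array of B4F125 over B4F75 gave −1.32, and that of B5F125 over B4F75 gave −2.46, so F125 was lower on 4 of 4 arrays. The 2 arrays of B5F75 over B4F75 gave 1.69 and −1.40, a span as wide as these values. The fitted difference at 7 d was −1.91 ± 0.67 in BCS4 cows (limma, adjusted p = 0.846), where 0.700 % of all genes were called lower and 1.01 % either way. Averaged over BCS it was −1.67 ± 0.58 at 7 d (adjusted p = 0.889; 0.734 % of all genes called either way) and −0.87 ± 0.31 over the days (adjusted p = 1; 0.434 %). With cow pairs left out in turn the value in BCS4 cows at 7 d was called in 4 of 16 fits (−2.50 to −1.49), and those averaged over BCS in 11 (−1.87 to −1.26) at 7 d and 8 (−1.03 to −0.61) over the days. In the 12 arrays of 7 d alone the value in BCS4 cows was −0.94 and not called. With F125 over F75 in BCS5 cows at 7 d, both arrays were blank for *FLT1*.

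*ENG*, a co-receptor of the transforming growth factor β family in endothelium and the brightest of the genes, gave −0.11 and −0.25 at −7 d, −0.38 and 0.23 at 7 d, and −0.44 and 0.13 at 28 d on the B4F125 over B4F75 arrays. The values lay on both sides of 0 at 7 and 28 d. Fitted differences on the 3 days were 0.10, 0.30 and 0.11 in BCS5 cows, against −0.27, −0.06 and 0.05 in the thin cows, and none had a p of at most 0.05.

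*VASH1* encodes vasohibin 1, an inhibitor of angiogenesis secreted by endothelial cells. At −7 d the B4F125 over B4F75 arrays gave −1.41 (whole numbers 7 to 15) and −1.68 (1 to 4). Whole numbers here are those of the deposited ratio, before each array was centred on its median, so they do not give the centred value exactly. B4F75 was the higher treatment on 6 of 6 arrays that held it on this day, by 0.29 to 1.68 after centring. The array at 0.29, against B5F125, had whole numbers of 1 and 1, so its difference came from the centring alone. The remaining arrays were less even, since B5F125 over B4F125 gave 3.13 (12 to 1) on 1 array and 0.43 (10 to 9) on the other. Relative to the mean of the 4 treatments, the fitted levels at −7 d were 0.25 in B5F125, −0.26 in B5F75, −0.68 in B4F125 and 0.69 in B4F75. No SE was computed against this mean of the day. From high to low the order was B4F75, B5F125, B5F75 and B4F125. The step between B5F125 and B5F75 was 0.51 ± 0.39 and not called, and the other steps between neighbours were not tested.

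The fitted difference between B4F125 and B4F75 at −7 d was −1.37 ± 0.36 (limma, adjusted p = 0.664), against 0.147 % of all genes called lower and 0.480 % either way. It kept its call without each of the 16 cow pairs in turn, between −1.48 and −1.08. At 7 d the direct arrays gave −0.21 and −1.58 and at 28 d −0.55 and 0.11, so the groups overlapped at 28 d, and the fitted differences of −0.49 ± 0.35 and −0.54 ± 0.36 were not called. Over the days the difference was −0.80 ± 0.25 (adjusted p = 1). Without the cow pair that gave −1.68 at −7 d it was −0.73 and not called.

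In BCS5 cows the fitted difference of *VASH1* ran the other way, at 0.51 ± 0.39, 0.40 ± 0.35 and 0.11 ± 0.35 on the 3 days. None had a p of at most 0.05. The B5F125 over B5F75 arrays gave 0.36 on the 1 measured at −7 d, 0.11 and 1.23 at 7 d, and −0.50 and 0.02 at 28 d. The interaction, the feeding response in BCS5 minus that in BCS4 cows, was 1.89 ± 0.53 at −7 d (limma, adjusted p = 1) and 1.14 ± 0.36 over the days (adjusted p = 0.999). These were the 2 called of 40 interaction tests of the members, where 0.427 % of all genes were called at −7 d (0.240 % higher), 0.987 % at 7 d, 0.646 % at 28 d and 0.501 % over the days (0.347 % higher). Both calls were lost without the cow pair that gave the ratio of 3.13, at 1.25 at −7 d and 0.89 over the days. All of these values rest on 1 dim probe.

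**Figure D3:**
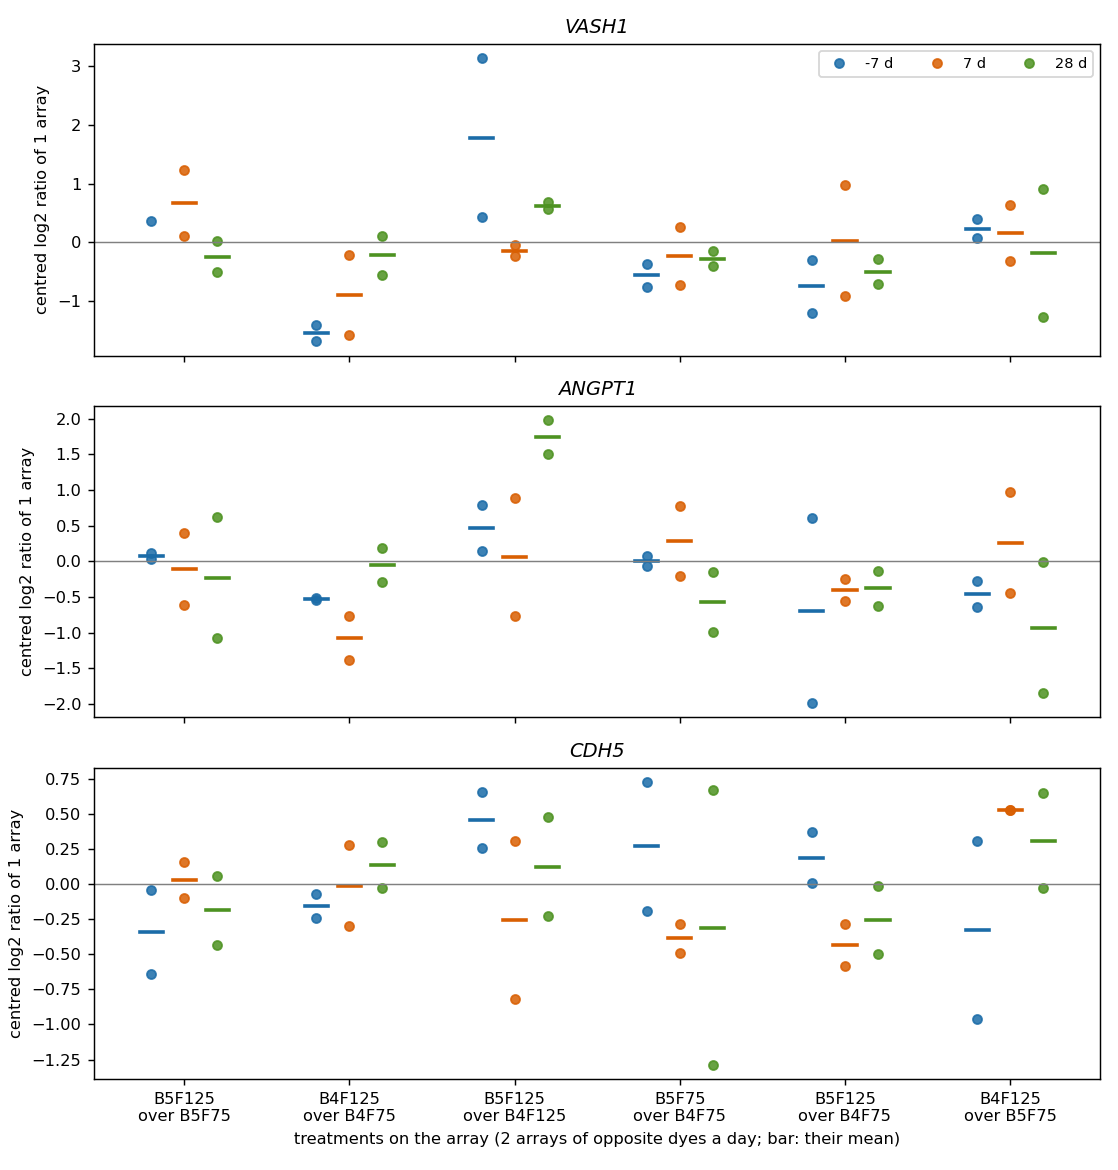
Centred log2 ratios of single arrays within a day for *VASH1*, *ANGPT1* and *CDH5*, by the 2 treatments on the array (x axis) and by day (colour); a bar is the mean of 2 arrays with opposite dyes. *VASH1* lies at −1.41 and −1.68 for B4F125 over B4F75 at −7 d, *ANGPT1* at 1.98 and 1.5 for B5F125 over B4F125 at 28 d, and *CDH5* between −0.82 and 0.31 for BCS5 over BCS4 within a feeding level at 7 d.

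The transcription factor gene *ERG* differed between F125 and F75 cows by −0.07, −0.14 and −0.16 on the 3 days at BCS5, and by −0.45, −0.17 and 0.17 at BCS4, with an SE of 0.24. Its feeding response in BCS4 cows was 0.62 ± 0.29 higher at 28 d than at −7 d (limma, adjusted p = 0.957), which was not called. *CDH5*, VE-cadherin of the adherens junctions, lay between −0.18 and 0.01 over the 6 feeding comparisons of a single day, within its SE of 0.21. *PECAM1*, an adhesion molecule at the borders between endothelial cells, lay between −0.28 and 0.21, and *VWF*, von Willebrand factor, between −0.34 and 0.06. No value of these 3 genes had a p of at most 0.05 in a feeding comparison.

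Counted by the sign of the fitted difference alone, 10 of 10 genes were below 0 in B4F125 against B4F75 cows with the days averaged (median −0.18). Of all genes 51.6 % were below 0 there (median −0.01). At −7 d the count was 9 of 10 (median −0.25), with *TEK* as the exception, where 52.7 % of all genes were below 0. The arrays that held both groups directly gave *KDR* a mean of 0.36 over the days and *TEK* 0.23, both above 0. Their means for the other genes were below 0. At −7 d these arrays gave *KDR* 0.305 and *TEK* 0.297. With cow pairs left out in turn, 7 to 10 genes were below 0 over the days. With the brightest probe of each gene alone 7 of 9 were, and with dim probes left out 7 of 8. In BCS5 cows 7 of 10 genes were below 0 over the days (median −0.05), where 47.5 % of all genes were. These counts are a description and no test of the set. The genes share arrays and cows, their ratios are in part correlated, and they were chosen with earlier results of these data known.

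BCS before calving changed none of the 10 genes past the threshold. Of 80 tests (BCS5 vs BCS4 at each feeding level on each day and over the days), 0 were called with limma and 8 had a p of at most 0.05, as had 3.62 % of all gene tests. Over all genes the share called in F125 cows was 0.380 % at −7 d, 0.813 % at 7 d, 0.566 % at 28 d and 0.460 % over the days, and in F75 cows it was 0.366, 1.22, 0.366 and 0.233 %. *CDH5*, called in none of the 80, passed the p threshold at 7 d with the feeding levels averaged. Its B5F125 over B4F125 arrays gave 0.31 and −0.82, its B5F75 over B4F75 arrays −0.28 and −0.49, and its B5F125 over B4F75 arrays −0.28 and −0.58. Both arrays of B4F125 over B5F75 gave 0.53, so BCS5 was lower on 7 of 8 arrays that set the scores against each other. Averaged over feeding the difference was −0.49 ± 0.15 (limma, adjusted p = 0.656; 0.894 % of all genes called), past the p threshold and short of a 1.5-fold change. It was −0.47 in F125 and −0.50 in F75 cows, while at −7 d it was 0.27 ± 0.15 and at 28 d −0.06 ± 0.15. The 3 probes of *CDH5* gave −0.52, −0.17 and −1.18 at 7 d, from the brightest to the dimmest, the same sign with unequal size.

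Other values with a p of at most 0.05 in these comparisons belonged to *VASH1*, *ANGPT1*, *ERG* and, averaged over feeding, *KDR*. *VASH1* at −7 d was 0.94 in B5F125 against B4F125 cows and −0.95 in B5F75 against B4F75 cows, opposite signs at the feeding levels. *ANGPT1* at 28 d was 0.90 ± 0.34 in B5F125 against B4F125 cows, past 1.5-fold and short of the p threshold like both values of *VASH1*, and *ERG* was −0.52 there. *KDR* averaged over feeding was 0.53 ± 0.22 higher in BCS5 than in BCS4 cows at −7 d. On 1 array of that day B5F75 exceeded B4F125 by 2.87, far above the 7 other arrays that set the scores against each other, which lay between −0.12 and 1.23. The lowest adjusted p of the 80 tests was 0.692 (limma).

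At −7 d all 10 genes were above 0 in B5F125 against B4F125 cows, from 0.20 for *ENG* to 0.94 for *VASH1* (median 0.35), where 51.0 % of all genes were above 0 (median 0.01). Only *VASH1* had a p of at most 0.05 and 0 were called (0.380 % of all genes). Without each cow pair in turn the count stayed at 10 of 10, with medians of 0.24 to 0.42. It was 8 of 9 with the brightest probes alone (median 0.15) and 7 of 8 without dim probes (median 0.19). Among the 8 BCS comparisons the median of 0.35 was the highest, and the lowest was −0.275. With cow pairs left out in turn, 4 to 5 genes were above 0 in B5F75 against B4F75 cows at −7 d. In B5F125 against B4F125 cows it was 2 to 8 at 7 d and 2 to 5 at 28 d. The genes share arrays and were chosen with earlier results of these data known, so such counts are no test of the set. The comparison of B5F125 with B4F125 cows shares the B4F125 samples with the one between B4F125 and B4F75 cows.

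Markers of other cells were counted by sign in the comparison of B5F125 with B4F125 cows at −7 d, where 51.0 % of all genes were above 0. Platelet, neutrophil and bile duct markers are not listed. Of 13 measured Kupffer cell and macrophage markers, 12 were above 0 in B5F125 against B4F125 cows at −7 d (median 0.29), as were 11 of 13 stellate cell and fibroblast markers (0.18) and 7 of 7 lymphocyte markers (0.26). Hepatocyte markers were above 0 in 6 of 17 (−0.06) and erythroid markers in 1 of 6 (−0.38), and no gene of these lists was called. In B4F125 against B4F75 cows on that day, 13 of 13 Kupffer cell and macrophage markers were below 0 (median −0.21), as were 52.7 % of all genes. Of 6 erythroid markers 5 were above 0 (median 0.69). Hepatocyte, stellate cell and fibroblast, and lymphocyte markers are not listed for this comparison. No shift of a marker list was tested. The part of other cells in the values of the 10 genes was not tested either.

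Between days, 0 of 30 tests were called with limma and 1 had a p of at most 0.05, as had 9.98 % of all gene tests. Over all genes 1.49 % were called at 7 against −7 d, 2.08 % at 28 against −7 d and 1.85 % at 28 against 7 d. The gene with a p of at most 0.05 was *CDH5* at 28 against −7 d. Its 4 cow pairs gave −0.56 in B5F125, −0.33 in B5F75, −0.41 in B4F125 and −0.76 in B4F75, the same sign in 4 of 4. The fitted difference was −0.52 ± 0.18, signed as labelled (limma, adjusted p = 0.254), short of 1.5-fold. The other members had both signs among their pairs at 28 against −7 d, apart from *VASH1*, measured in 3 pairs at −0.55 to −0.04. Their fitted day differences, signed as labelled, lay between −0.46 and 0.41 over the 3 comparisons.

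**Figure D4:**
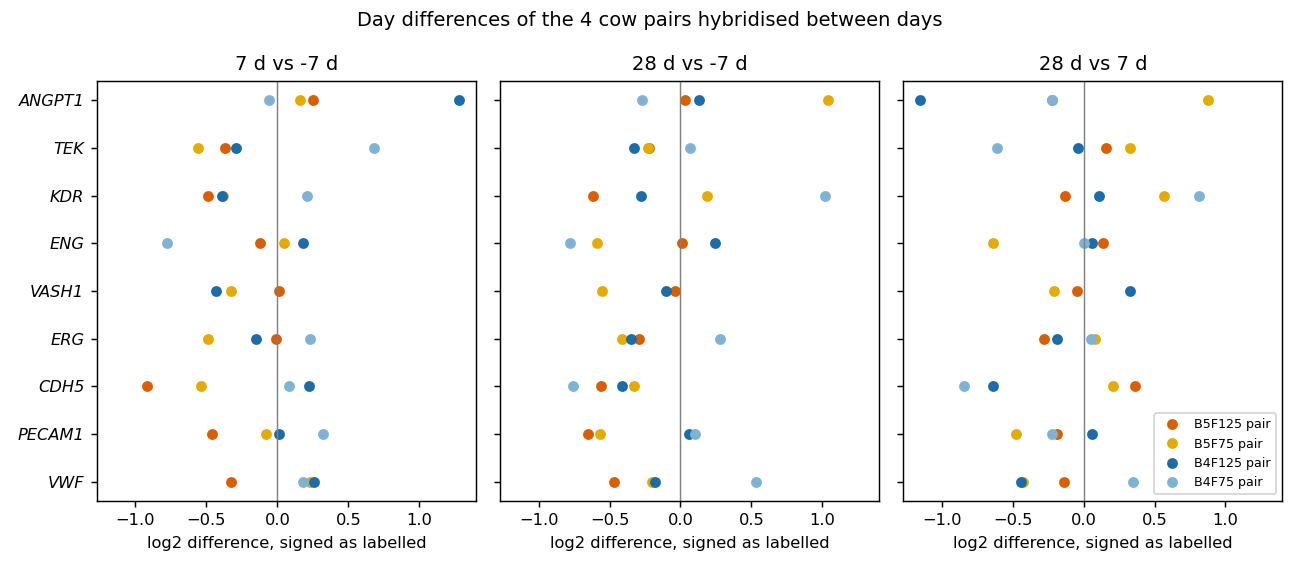
Log2 differences between days, signed as labelled, of the 4 cow pairs hybridised between days (1 per treatment, colour), for 9 genes and the 3 pairs of days; *FLT1* is left out, as it was measured in 2 pairs. *CDH5* at 28 against −7 d lies left of 0 in all 4 pairs, from −0.76 to −0.33, and most other genes have points on both sides.

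Across arrays, the 6 genes with the brightest probes rose and fell together only in part. Pearson's r of their dye-corrected ratios ranged from −0.04 to 0.58 over 15 pairs (median 0.30, n = 48 arrays that share cow pairs), with *TEK* and *KDR* at 0.58, *TEK* with *CDH5* and with *PECAM1* at 0.44, and *ENG* with *TEK* at −0.04. *ANGPT1* had r between −0.10 and 0.16 with the other genes except *VASH1*, with which it had 0.42 over 46 arrays. These values are descriptions, since the 3 arrays of a cow pair are not independent.

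Among 12818 genes, the 3 whose ratios ran most like those of *TEK* were *DNASE1L3*, a secreted DNase (r = 0.80), *FLI1*, an ETS transcription factor of endothelial and blood cells (0.80), and *LATS2*, a kinase of the Hippo pathway (0.74). Those of *PECAM1* were *GPM6A* (0.72), *OIT3* (0.71) and *RAMP3* (0.69), a partner of the adrenomedullin receptor. *KDR* ran most like *THBD*, the thrombin receptor thrombomodulin (0.64), *CLIC2* (0.63) and *RASIP1* (0.60). Genes that ran like *CDH5* included *PLTP* (0.64) and *DAB2* (0.60), and those most like *VWF* were *SOX4* (0.69), *EHD4* (0.59) and *CDCA7L* (0.58). *ENG*, the brightest, ran most like *GNAI2* (0.75), *IRF3* (0.74) and *LOC1337329* (0.74), and *ERG* like *MFNG* (0.57), *PPT1* (0.55) and *C1H14orf166B* (0.55). The dimmer *VASH1* reached no more than 0.55, with *CLEC4A*, *SPAG6* and *ORC3* as its like genes. *ANGPT1* reached no more than 0.53, with *MCM8*, *GRB10* and *JAKMIP2*. Over all genes compared, the median r was −0.02 with *TEK* and 0.02 with *ENG*. The r of all genes with *ENG* spread more widely than with any other member compared, so a high r sets its like genes less apart.

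**Figure D5:**
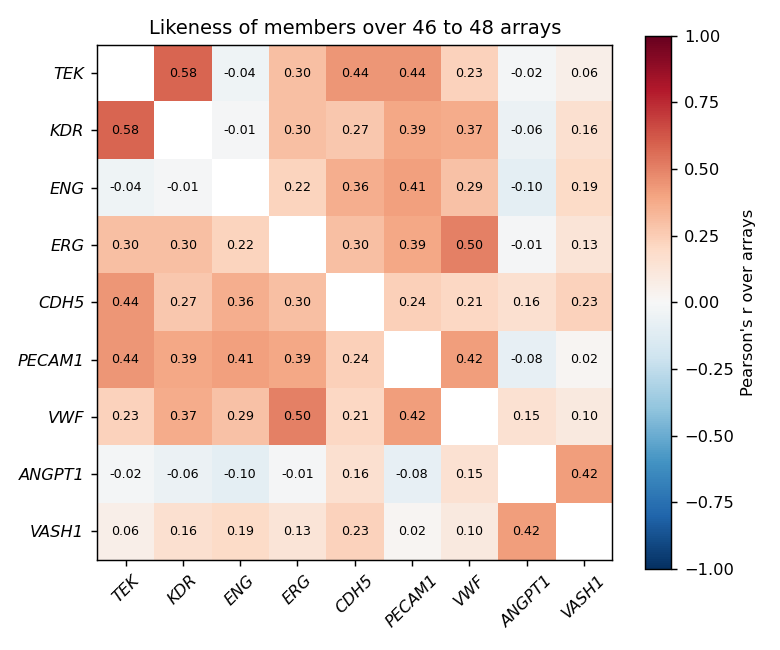
Pearson's r between the dye-corrected log2 ratios of 9 of the genes over 46 to 48 arrays; *FLT1* is left out for its blanks. The squares among *TEK*, *KDR*, *ERG*, *CDH5*, *PECAM1* and *VWF* are all above 0, from 0.21 to 0.58, and those of *ANGPT1* lie near 0 except with *VASH1* at 0.42.

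Other genes of the endothelium and its signals, 127 of 143 on 8 lists, seldom passed the threshold. Of 19 measured genes of the vascular endothelial growth factor and angiopoietin pathways, 0 were called in the feeding, BCS or interaction comparisons, and 0 or 1 had a p of at most 0.05 at −7 d in B4F125 against B4F75 and B5F125 against B4F125 cows. Of 18 other endothelial transcription factor genes, *TAL1*, a regulator of blood and endothelial fate, was called at 7 d in B5F125 against B5F75 cows (0.73 ± 0.27) and in B5F75 against B4F75 cows (−0.80 ± 0.27), which share the B5F75 samples. *KLF4*, a factor induced by flow, was called at 28 d in B5F125 against B4F125 cows (−1.13 ± 0.32). With feeding averaged, *KLF4* at 28 d (−0.84 ± 0.23) and *HEY1* at 7 d (−1.08 ± 0.33) were called lower in BCS5 cows. Over all genes 0.273 and 0.894 % were called in these comparisons. Of 16 sinusoidal endothelial genes, *BMP2*, a signal for hepcidin made by these cells, was called at 7 d in B5F125 against B5F75 cows (−1.01 ± 0.32). At 28 against −7 d the scavenger receptor gene *STAB1* was called at −0.65 ± 0.21, signed as labelled, while *S1PR1* of the first list, a receptor for sphingosine 1-phosphate, was called at 0.83 ± 0.22. *ARNT* was called at 28 against −7 d (0.92 ± 0.28) and 28 against 7 d (0.99 ± 0.28). Also called at 28 against 7 d were *TGFBR1* (1.57 ± 0.50), *EMCN* (−0.65 ± 0.24) and *HEY1* (−1.30 ± 0.42). *MCAM* was called at 7 against −7 d (−0.59 ± 0.19), all signed as labelled. Over all genes 0.386 to 1.07 % were called in a feeding, 0.233 to 1.22 % in a BCS and 1.49 to 2.08 % in a day comparison. None of the calls named here had an adjusted p under 0.05.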

How the data were processed

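The deposited values were log2 ratios of the 2 channels of 48 two-colour Agilent bovine 44K arrays, scanned with GenePix by the authors, who excluded substandard spots. Their methods name lowess normalization and array centring, but 93.084 % of the deposited values are exact log2 ratios of whole numbers up to 2000 (0.032 % after a shift), and array medians ran from 0 to 0.5213, so neither was seen in them. Gene names came from a deposited annotated table joined by spot number, where 48 value columns matched no sample label and were not used. Of the names, 361 were restored through RefSeq symbols of assembly ARS-UCD2.0. Arrays were centred on their median and probes averaged per gene. Genes on at least 24 arrays were fitted in R 4.3.3 with limma 3.58.1 (12 group means, a dye term, cow pair, the same 2 cows on all 3 days by the cow numbers in the titles, as a signed random block with consensus correlation 0.1302). The code was tested on simulated data. Every member was named in each comparison, genes of other lists by smallest p among those called, and like genes by the 3 highest correlations over at least 40 arrays, of which 1 gene is not reported here. The members and lists were chosen with earlier results of these data known. No adjustment was made for cow age or breed, and no sequences or coordinates were used. Arrays limit precision by their number.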

Additional observations from a re-analysis of the deposited data

Results flagged for a closer look

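The feeding response of *VASH1* differed between BCS5 and BCS4 cows by the test of the interaction, at 1.89 (log2) at −7 d and 1.14 with the days averaged, with adjusted p-values in limma of 1 and 0.999. Among the 4 cow pairs between days, the pair of B5F125 cows stood apart for *VWF* at 7 against −7 d, at −0.33 against 0.18 to 0.26 in the other pairs. The pair of B4F75 cows stood apart for *KDR* at 7 against −7 d, at 0.21 against −0.49 to −0.38 in the other pairs. Such gaps were looked for in 24 groups of 4 pairs and found in 2, and chance gives about 1 in 20.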

How the results depend on the processing

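The 5 calls in the feeding comparisons became 3 with values as deposited, 2 with only the 10814 genes on all 48 arrays (8 members), 2 with the brightest probe of each gene, 0 with dim probes left out and 0 at an adjusted p under 0.05, and 2 to 5 with each cow pair left out in turn. They became 6 with arrays scaled to the same spread, 6 with array weights and 7 at p of at most 0.05. The 2 interaction calls became 3 with each probe on its own, 0 with genes on all arrays, 0 without dim probes and 0 at an adjusted p under 0.05, and 0 to 2 with cow pairs left out. The 0 calls in the BCS comparisons became 3 with arrays scaled to the same spread, 3 with the between-day arrays turned in sign, 2 with array weights, 2 with each probe on its own, 2 with the 36 arrays within a day, 1 with a gene by gene mixed model, 1 with genes on all arrays and 8 at p of at most 0.05, and 0 to 2 with cow pairs left out. The 0 calls between days became 1 with values as deposited, 1 with each probe on its own, 1 with the brightest probes, 1 without dim probes and 1 at p of at most 0.05, and 0 to 1 with cow pairs left out (*CDH5*, −0.69, without the pair of B5F75 cows). *CDH5* at 28 against −7 d turned to 0.52 with the between-day arrays turned, by construction. Fewer genes or probes were tested in the settings on all arrays and on probes; the cause of the other changes was not tested. Settings on probe brightness and on the sign of the between-day arrays were chosen after seeing the data. *FLT1* in BCS4 cows at 7 d was −1.23 and not called with those arrays turned. Arrays holding both groups directly gave values without a test and no counts. The same 2 cows formed a pair on all 3 days, so cow pair is the replicate block of the fits; without this replicate block the calls were 4 in the feeding, 1 in the BCS, 0 in the day and 2 in the interaction comparisons. Dim probes limit *VASH1* and *FLT1* most.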
